A study of Mus musculus with 18 samples.

Results

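The 43 mouse genes described here encode the machinery that prepares, starts and carries out the copying of DNA in S phase. They are a list of G1/S and S phase genes given by name, drawn up with earlier results of these data known. Ensembl gene identifiers were paired with symbols through GENCODE vM21. All 43 were found among the 48795 genes of the deposited table, of which 32595 had a read in at least 1 library. RNA sequencing was done on GL261 GFP cells, a mouse glioma line made to carry green fluorescent protein, and on tumours these cells formed in C57BL/6 mice. The hosts were wild type (WT) or Pfp/Rag2-/-, with 6 mice of each, and tumours were taken once the mice showed symptoms. Without Rag2 no mature T or B cells form, and without Pfp the killer cells that remain have no perforin to open pores in their targets; macrophages and other innate cells are kept. The 6 groups of 3 libraries were GFP+ cells sorted from WT tumours, GFP+ cells sorted from Pfp/Rag2-/- tumours, unsorted cells of WT tumours, unsorted cells of Pfp/Rag2-/- tumours, GFP- cells sorted from WT tumours, and cultured GFP+ cells of the kind injected. All tumours came from this 1 cell line. The labels give no age and do not say if each library stands for its own mouse or for pooled mice, so the p-values cover the spread among libraries, which may be technical.

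DNA replication is prepared in G1, when the origin recognition complex, Cdc6 and Cdt1 load the MCM helicase onto origins, and geminin prevents a repeat of this step within the same cycle. At the start of S phase Cdc45, the GINS complex and Mcm10 turn the loaded MCM ring into an active helicase, after which primase and the replicative polymerases copy the strands with the sliding clamp Pcna. Many of these genes are transcribed under E2F factors that are released when cyclin D and cyclin E kinases act on the retinoblastoma protein, so their messenger RNA is widely read as a sign of cycling cells.

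The E2F binding letters of the promoters are shown first, since they stood more often in these promoters than in those of genes at large. The 8-letter motifs were not in most of them. RefSeq promoters (250 bases before to 50 bases after the gene start, GRCm38.p6) could be matched for 34 of the 43 genes. At least 1 of the 8-letter E2F motifs TTTCCCGC, TTTGGCGC, TTTCGCGC and TTTGCCGC, searched on both strands, stood in 13 of the 34 (38.2%), against 2.6% of the 27025 genes with a promoter in the table. Those 13 were Cdc6, Cdt1, E2f2, Gins3, Lig1, Mcm3, Mcm5, Mcm6, Mcm7, Orc1, Pola1, Pold1 and Rfc3. The windows below are those of the 7 genes in which all 30 bases lie before the RefSeq start, 5′ to 3′ on the strand of the gene, with the match in capitals; GCGGGAAA, GCGCGAAA and GCGCCAAA are the motifs as read on the other strand.
Orc1, chr4:108579416-108579445, plus strand: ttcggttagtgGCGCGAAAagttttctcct
Cdc6, chr11:98908002-98908031, plus strand: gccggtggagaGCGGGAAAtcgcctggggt
Mcm5, chr8:75109345-75109374, plus strand: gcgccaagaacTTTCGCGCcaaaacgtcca
Mcm6, chr1:128359797-128359826, minus strand: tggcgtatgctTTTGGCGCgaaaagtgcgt
Mcm6, chr1:128359734-128359763, minus strand: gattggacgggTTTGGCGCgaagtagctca
Mcm7, chr5:138172030-138172059, minus strand: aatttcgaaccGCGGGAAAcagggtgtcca
Gins3, chr8:95633507-95633536, plus strand: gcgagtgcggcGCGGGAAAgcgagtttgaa
Pola1, chrX:93632275-93632304, minus strand: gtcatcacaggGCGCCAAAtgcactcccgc
The matches began between 27 bases (Orc1) and 165 bases (Mcm7) before the start, and Mcm6 held matches at 110 and at 47 bases. Matches on the other strand that overlap a printed one, at 106 bases in Mcm6 and at 149 bases in Mcm5, are not in capitals. The same motifs without their first T, 7 letters long, stood in 22 of the 34 (64.7%) against 10.86% of all genes. The CCAAT box, searched as CCAAT, was in 22 of 34 (64.7%) against 41.06%, and the cell cycle homology region (CHR), searched as TTTGAA, in 6 of 34 (17.6%) against 20.23%. A match describes letters in this window and is not a measured binding site.

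The libraries held 19172814 to 21141662 recovered reads. All levels are normalized counts, in which the authors divided the reads of a library by 1 size factor; this factor was 0.649 to 0.761 for GFP- cells and 1.04 to 1.15 elsewhere. Prf1, the perforin gene, checks the host labels only in part, since gene counts may include reads from outside a deletion. It held 118, 110 and 160 reads in unsorted WT and 8, 15 and 18 in unsorted Pfp/Rag2-/- libraries, 123, 5 and 11 in sorted WT GFP+ and 128, 6 and 1 in sorted Pfp/Rag2-/- GFP+ libraries, 1847, 1348 and 2813 in GFP- libraries and 0, 1 and 0 in culture. The sorted library labelled Pfp/Rag2-/- 1 thus held as much Prf1 as the highest sorted WT library, against its label. Rag2 held 5, 0 and 0 reads in sorted and 5, 7 and 4 in unsorted Pfp/Rag2-/- libraries, 0 in all 9 WT libraries and 0, 1 and 0 in culture, so that the Rag2 reads of the same library went with its label. For the main fits, counts of calls among the 43 genes that use this library are given below with and without it. Each call among the 43 genes that is lost without it is named. Counts of further pathway genes and counts by promoter letters include this library. The tumour cell markers Sox2 and Nes summed to 10153.5 to 23323.4 in the GFP+ and unsorted libraries and to 388.2 to 1872.3 in the GFP- libraries. Library 1 of the sorted GFP+ cells stood apart in both hosts, since 12 macrophage and microglia markers summed to 8173.0 there in WT (libraries 2 and 3, 2796.2 and 4831.9) and to 7109.3 in Pfp/Rag2-/- (1690.0 and 1648.6). GFP- libraries held 309036.5 to 428152.8 of these markers.

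Across the 18 libraries most of these genes followed 1 broad order, with cultured and WT tumour cells high, Pfp/Rag2-/- tumour cells lower and GFP- cells lowest. The median over the 43 genes of log2(normalized count + 1) minus the culture mean lay at -0.048 to 0.056 in the 3 WT GFP+ libraries and at -0.245 to -0.181 in the 3 Pfp/Rag2-/- GFP+ libraries. It lay at -0.067 to 0.14 in unsorted WT and at -0.435 to -0.28 in unsorted Pfp/Rag2-/- tumours, so that every WT library stood above every Pfp/Rag2-/- library in both preparations. GFP- libraries lay at -1.289 to -0.764, with library 2 the lowest. By group mean, 35 of the 43 genes were lowest in GFP- cells, while 14 were highest in culture, 13 in unsorted WT tumours, 10 in WT GFP+ cells and 4 in GFP- cells. Such bulk values cannot tell fewer cells in cycle from less RNA of these genes per cell.

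**Figure D1:**
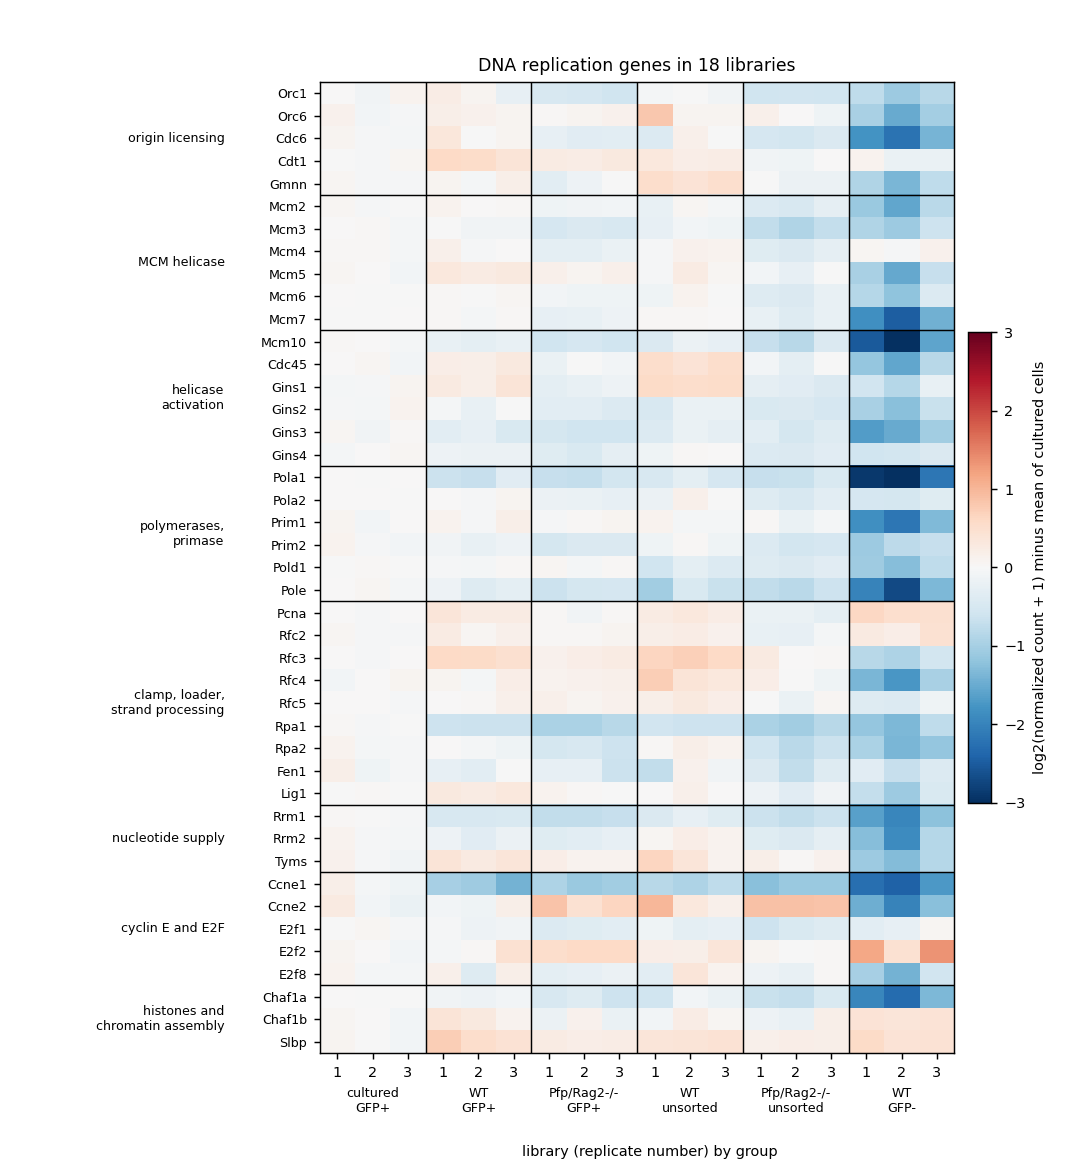
Heat map of the 43 genes (rows, by role) in 18 libraries (columns, replicate number within group); colour is log2(normalized count + 1) minus the mean of the 3 cultured libraries, red higher and blue lower, and colours stop at 3 in either direction. The GFP- columns are blue in most rows, with 35 genes lowest there, while the Pcna, E2f2, Slbp and Rfc2 rows, among others, are red in that group.

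Per kilobase of gene model, the clamp gene Pcna stood highest of the 43 in all 6 groups, at 1423 ± 32.8 normalized counts per kilobase in culture and 2058 ± 118 in GFP- cells (mean ± SD, n = 3). The 6 MCM subunits, which form 1 ring with 1 copy of each, lay within 557.5 (Mcm2) to 1202 (Mcm7) per kilobase in culture and 255.2 (Mcm2) to 603.2 (Mcm3) in GFP- cells. The lowest of the 43 was E2f2 in culture at 62.2 ± 3.97, Orc1 in Pfp/Rag2-/- GFP+ cells at 55.6 ± 2.2 and Mcm10 in GFP- cells at 40.5 ± 21 per kilobase. Part of some transcripts is shared with other genes, so their counts are less certain. The share of 50-base words also present elsewhere was 81.2% for Fen1, 70.3% for Gins2, 48% for Chaf1a, 34.2% for Mcm7, 31.8% for Pcna (shared with the pseudogene Pcna-ps2), 19.8% for Rfc2 and 17.4% for Ccne2.

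Sorted GFP+ cells of WT tumours were compared with those of Pfp/Rag2-/- tumours to ask how tumour cells differ after growth in a host with a complete immune system. Of the 43 genes, 25 (58.1%) were higher in WT and 1 was lower, and 17 passed in neither direction, where a call is a Benjamini-Hochberg adjusted p under 0.05 over all 14807 genes tested with limma. Of all genes tested, 15.3% were called higher and 15% lower. The median log2 difference was 0.24 over the 43 genes and -0.016 over all genes, and 37 of the 43 values were above 0. In 30 genes (69.8%) the 2 hosts did not overlap, against 48.7% of all genes tested. The shifts were small, from -0.67 for Ccne2 to 0.55 for Orc1 on the log2 scale.

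Among the 5 licensing genes, Orc1, Cdc6 and Cdt1 were higher and Orc6 and Gmnn were not called; without the library labelled Pfp/Rag2-/- 1 Cdt1 was not called either (log2 difference 0.258, adjusted p = 0.0521). Orc1 (ENSMUSG00000028587, chr4:108579423-108614833), the large subunit of the origin recognition complex, had normalized counts of 328, 295 and 235 in WT libraries and 200.0, 196 and 185 in those of Pfp/Rag2-/- hosts. All WT libraries lay above all Pfp/Rag2-/- libraries, and the WT values spread more widely, with library 3 the lowest of them. It was the largest positive difference of the 43 (log2 difference 0.55, SE 0.14, limma adjusted p = 0.0248), but it was lost without WT library 1 (adjusted p = 0.0711) or 2 (0.084), without Pfp/Rag2-/- library 2 (0.0751) or 3 (0.0848) and without both libraries numbered 1 (0.0977). Cdc6, the ATPase that loads the helicase, stood at 1226, 973 and 1034 in WT against 818, 775 and 778 (log2 difference 0.44, SE 0.091, limma adjusted p = 0.0125), again without overlap, and was lost with all 18 libraries in 1 fit (adjusted p = 0.0876) and without Pfp/Rag2-/- library 2 (0.0519). Gmnn, geminin, gave a log2 difference of 0.24 that did not pass (adjusted p = 0.0973).

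All 6 MCM subunits were called higher in WT GFP+ cells, and their hosts did not overlap in any of the 6. Mcm3 (ENSMUSG00000041859, chr1:20802968-20820312) differed most among them, with 4048, 3802 and 3835 against 2886, 3045 and 2939 (log2 difference 0.40, SE 0.048, limma adjusted p = 0.00175), and every one of its 17 alternatives kept the call. The smallest differences were those of Mcm6 (4489, 4375 and 4583 against 4139.5, 4021 and 4015; log2 difference 0.14, SE 0.043, limma adjusted p = 0.0438), Mcm2 (0.16, adjusted p = 0.0367) and Mcm5 (0.17, adjusted p = 0.0323). These last 3 calls were lost in 12, 11 and 11 of 17 alternatives, among them leaving out WT library 1 or 2 or any of the Pfp/Rag2-/- libraries; with the replicate block their adjusted p was 0.0839, 0.0743 and 0.0523. Without the library labelled Pfp/Rag2-/- 1 Mcm7 was lost too (0.186, adjusted p = 0.0692), which left Mcm3 and Mcm4 called. Quantile normalization brought the log2 differences of Mcm6, Mcm2 and Mcm5 down to 0.008, 0.030 and 0.032. The whole ring thus spanned 1.1-fold (Mcm6) to 1.32-fold (Mcm3) in favour of WT on the deposited scale.

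The genes that activate the loaded helicase all had positive values, and Mcm10, Cdc45 and Gins1 passed the test. Gins1 (ENSMUSG00000027454, chr2:150905400-150931280), the Psf1 subunit of GINS, had counts of 443, 416 and 479 in WT and 299.5, 312 and 331 in Pfp/Rag2-/- cells (log2 difference 0.50, SE 0.087, limma adjusted p = 0.00645). The 2 hosts were separate for Gins1, with all WT libraries above all others. Gins2, Gins3 and Gins4 had log2 differences of 0.25, 0.25 and 0.20 with adjusted p of 0.0658, 0.0695 and 0.0613, so only 1 of the 4 GINS subunits passed in this comparison. Of the polymerase and primase genes Pola2, Prim2 and Pole were higher, with log2 differences of 0.23, 0.29 and 0.29, and Pola1, Prim1 and Pold1 were not called. Without the library labelled Pfp/Rag2-/- 1 Prim2 (adjusted p = 0.0501) and Pole (0.0754) were lost and Pola2 was kept. Over all 17 alternatives Pola2 was lost in 7, Prim2 in 4 and Pole in 8.

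Rpa2 (ENSMUSG00000028884, chr4:132768332-132778752), which covers single-stranded DNA as part of replication protein A, was the most separate of the clamp and strand-processing genes. Its counts were 1705, 1628 and 1554 in WT and 1169, 1199.5 and 1088 in Pfp/Rag2-/- cells, 1.41-fold higher (log2 difference 0.50, SE 0.061, limma adjusted p = 0.00187). The lowest WT library lay above the highest Pfp/Rag2-/- library by a wide margin, and the call held in all 17 alternatives. Rpa1, the large subunit, Pcna, the clamp, Rfc3, a clamp loader subunit, and Lig1, the ligase that seals Okazaki fragments, were also called higher, by 0.23 (Lig1) to 0.37 (Rfc3). The other loader subunits Rfc2, Rfc4 and Rfc5 gave 0.11, -0.070 and -0.050 and were not called. Of the nucleotide supply genes Rrm1 (0.25) and Tyms (0.20; adjusted p = 0.0503 with the replicate block and 0.0528 without the library labelled Pfp/Rag2-/- 1) were higher and Rrm2 (0.080) was not called. Chaf1a, the large subunit of chromatin assembly factor 1, and Slbp, which binds the stem-loop of histone messages, were higher by 0.38 and 0.35.

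The cyclin E and E2F genes did not move as 1 group. Ccne2 (ENSMUSG00000028212, chr4:11191351-11204779), cyclin E2, was the sole gene of the 43 called lower in WT, with 449, 439 and 536 against 864, 658 and 749.7 (log2 difference -0.67, SE 0.12, limma adjusted p = 0.00823). Every Pfp/Rag2-/- library stood above every WT library, and the call held in all 17 alternatives, with log2 values from -0.77 to -0.53. E2f2, an activator E2F, ran the same way at 291, 311 and 416 against 437, 460.2 and 460.5 without passing (log2 difference -0.43, SE 0.14, limma adjusted p = 0.053); with the replicate block it did (adjusted p = 0.0354). E2f1, the best known activator, was higher in WT (0.27, adjusted p = 0.0212), a call lost in 7 of 17 alternatives, among them without the library labelled Pfp/Rag2-/- 1 (adjusted p = 0.0664), without WT library 1 (0.0659) and without Pfp/Rag2-/- library 2 (0.0684) or 3 (0.0501). Ccne1, cyclin E1 (-0.14), and the repressor E2f8 (0.23) were not called.

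**Figure D2:**
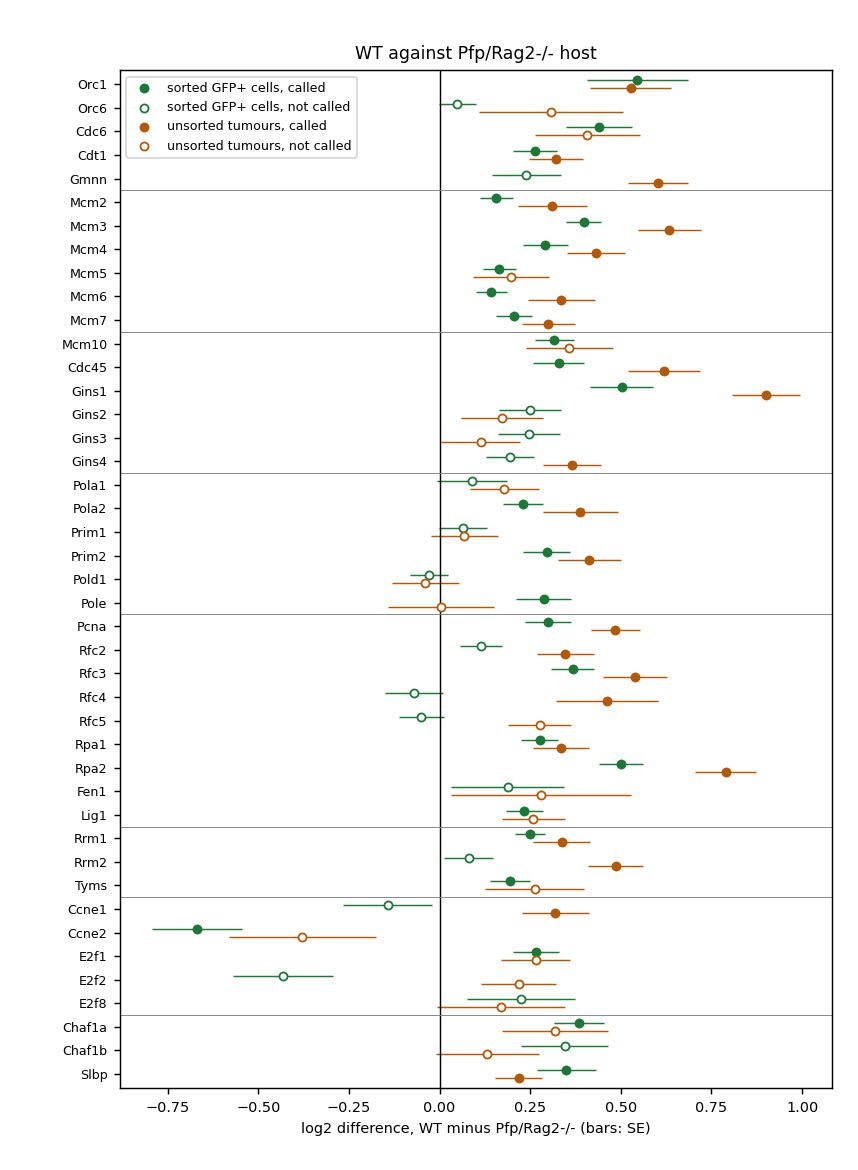
Log2 difference, WT minus Pfp/Rag2-/- host, of each gene in sorted GFP+ cells (green) and unsorted tumours (brown); bars are SE, filled points are called at a limma adjusted p under 0.05. Most points lie to the right of 0, with Gins1 at 0.90 and Rpa2 at 0.79 in unsorted tumours, and Ccne2 lies farthest to the left.

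The 26 calls of the sorted comparison changed in number when single libraries were left out. They numbered 15 without WT library 1, and 17, 13 and 15 without Pfp/Rag2-/- library 1, 2 and 3, in each case with 1 lower. Over all 14807 genes, calls fell from 2269 higher and 2228 lower to 1507 and 1431 without WT library 1. They were 1766 and 1568, 1385 and 1137, and 1427 and 1240 without Pfp/Rag2-/- library 1, 2 and 3. With the library labelled Pfp/Rag2-/- 1 left out, the median stayed at 0.24 and 37 of the 43 values were above 0. Without both libraries numbered 1 there were 6 higher and 1 lower, although 38 of the 43 values were then above 0 and the median was 0.22. Over all genes 1264 were then called higher and 1076 lower. Among the 43, quantile normalization gave 17 calls, library totals 16, and 1 fit of all 18 libraries 11. Macrophage and microglia markers summed to 2796.2 to 8173.0 in WT and 1648.6 to 7109.3 in Pfp/Rag2-/- GFP+ libraries, 7 oligodendrocyte markers to 4481.7 to 10092.0 and 9518.3 to 11179.4, 7 endothelial markers to 1626.6 to 2335.4 and 2275.8 to 3205.3, and 8 T cell markers to 38.0 to 387.9 and 24.8 to 129.7. Most of each endothelial sum was Flt1, with means of 1548 in WT and 1814 in Pfp/Rag2-/- GFP+ cells. Flt1 also averaged 2150 in culture, where Cdh5, Kdr, Cldn5 and Emcn had no read. Kdr averaged 44.7 in WT against 157 in Pfp/Rag2-/- GFP+ cells, and Cldn5 109 against 295. None of the markers summed here was at 0 throughout either group, and their part in these differences was not tested.

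In unsorted tumours, which do not share libraries with the sorted comparison, 23 of the 43 genes (53.5%) were higher in WT hosts and 0 were lower. The background was 15.1% higher and 14.8% lower of the 15448 genes tested, and no gene of the 43 was lower at an unadjusted p under 0.05, with edgeR or with DESeq2, which called 27 higher each. The median was 0.32 against -0.048 for all genes. Hosts did not overlap in 28 genes (65.1%), against 48.4% of all genes. Of the 25 genes called higher in sorted cells 17 (68%) were also called here, which is 73.9% of the 23: Orc1, Cdt1, Mcm2, Mcm3, Mcm4, Mcm6, Mcm7, Cdc45, Gins1, Pola2, Prim2, Pcna, Rfc3, Rpa1, Rpa2, Rrm1 and Slbp. Without the sorted library labelled Pfp/Rag2-/- 1 the shared calls were 12 of 16 (75%), or 52.2% of the 23, and Cdt1, Mcm2, Mcm6, Mcm7 and Prim2 were no longer among them. With all libraries, those called in unsorted tumours alone were Gmnn, Gins4, Rfc2, Rfc4, Rrm2 and Ccne1.

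Gins1 stood at 548, 531 and 535 in unsorted WT and 302, 289.9 and 271 in unsorted Pfp/Rag2-/- tumours, the widest difference of the 43 at 1.87-fold (log2 difference 0.90, SE 0.093, limma adjusted p = 0.000835). Its WT libraries were nearly equal and all far above the others. Rpa2 had 1723, 1895 and 1825 against 1108, 962 and 1083 (log2 difference 0.79, SE 0.083, limma adjusted p = 0.000887), Mcm3 had 3438, 3900.0 and 3764 against 2479, 2189 and 2487 (log2 difference 0.63, SE 0.086, limma adjusted p = 0.00226) and Cdc45 had 1091, 1007 and 1094 against 718, 613 and 751 (log2 difference 0.62, SE 0.10, limma adjusted p = 0.00418). None of these 4 overlapped between hosts, and each kept its call in all 16 alternatives. Gmnn, which holds Cdt1 in check after licensing, was higher as well, at 1312, 1206 and 1297 against 903, 803 and 808 (log2 difference 0.60, adjusted p = 0.00229), and so was Rrm2, the S phase subunit of ribonucleotide reductase (0.49, adjusted p = 0.00395).

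The smallest called differences in unsorted tumours were those of Slbp (0.22), Mcm7 (0.30), Mcm2 (0.31) and Ccne1 (0.32), each lost in 7 to 10 of 16 alternatives, among them leaving out WT library 3 or any Pfp/Rag2-/- library. Ccne2 was 948, 599 and 528 in WT libraries and 873, 879 and 860.2 in those of Pfp/Rag2-/- hosts. WT library 1 stood above all others and libraries 2 and 3 below them, and the difference did not pass (log2 difference -0.38, SE 0.20, limma adjusted p = 0.196); without that library it did (adjusted p = 0.00159). The same WT library was also high for Orc6, at 2299, 1396 and 1389.7, and Rfc4, at 936, 731 and 698. The polymerase genes Pold1 and Pole had values of -0.039 and 0.004 and were not called.

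Calls numbered 12 without WT library 3, and 12 and 9 without Pfp/Rag2-/- library 1 and 2, all of them higher, with medians of 0.28 to 0.34 in these 3 fits. Over all 15448 genes these fits called 1514 higher and 1558 lower, 1662 and 1396, and 1297 and 983. The main fit called 2326 and 2294. Macrophage and microglia markers summed to 21034.9 to 23181.3 in unsorted WT and 6377.1 to 7575.3 in unsorted Pfp/Rag2-/- libraries, and 8 T cell markers to 292.5 to 682.7 and 47.1 to 95.9. Oligodendrocyte markers summed to 7994.4 to 12067.8 and 13183.7 to 21399.4, and endothelial markers to 3396.9 to 3990.0 and 3010.7 to 4495.5. Their part in the host differences was not tested. 

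**Figure D3:**
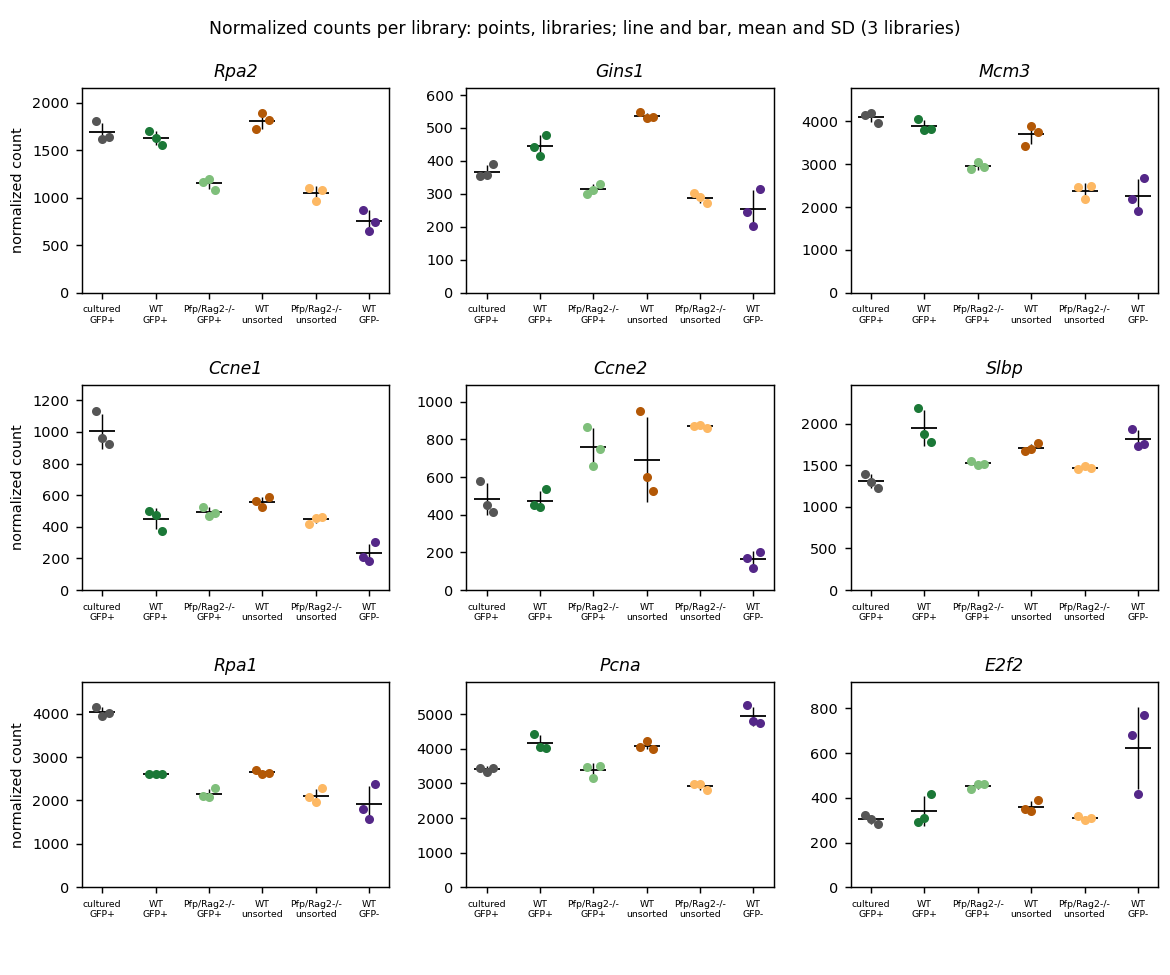
Normalized counts of 9 genes in the 18 libraries by group; points are libraries, the horizontal line is the mean and the bar the SD of 3 libraries, and each y axis starts at 0. For Rpa2, Gins1 and Mcm3 both WT groups stand above both Pfp/Rag2-/- groups, Ccne1 and Rpa1 are highest in culture, and Pcna and E2f2 are highest in GFP- cells.

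Whether the host difference itself differed between sorted cells and unsorted tumours was tested as an interaction in 1 limma fit of 12 libraries. None of the 43 genes passed (0 higher, 0 lower, against 0.712% and 0.223% of the 16161 genes tested), with adjusted p from 0.0691 to 0.998. At an unadjusted p under 0.05 there were 11, in all of which the sorted value was the lower one: Gmnn, Mcm3, Cdc45, Gins1, Rfc2, Rfc4, Rfc5, Rpa2, Rrm2, Ccne1 and E2f2. DESeq2 called 3 of the 43 lower, against 767 higher and 427 lower of the 13271 genes it tested. edgeR called 0 of the 43, against 50 higher and 20 lower of 16161. Without the sorted library labelled Pfp/Rag2-/- 1 limma called 0 of the 43 and 0 of all genes. The value farthest from 0 was that of E2f2 at -0.65 (SE 0.17, adjusted p = 0.0797), whose host difference was -0.43 in sorted cells and 0.22 in unsorted tumours.

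GFP+ cells from tumours were next set against the cultured cells, to see how cells grown in a mouse compare with those grown in a dish. Both comparisons use the same 3 cultured libraries. In WT hosts 11 genes (25.6%) were higher than in culture and 9 (20.9%) lower, which is below the background of 30.3% and 35.3% of 14261 genes. In Pfp/Rag2-/- hosts 7 (16.3%) were higher and 25 (58.1%) lower, against 35.1% and 37.1% of 14487 genes. The medians were 0.018 and -0.21, with -0.037 and -0.006 over all genes. The split of calls depended on the scaling: quantile normalization gave 17 higher and 6 lower in WT and 17 and 20 in Pfp/Rag2-/-, and library totals 13 and 7, and 15 and 14. Library totals moved the median of all genes in the Pfp/Rag2-/- comparison to 0.17, and the median of the 43 genes minus that of all genes was -0.205 on the deposited scale, -0.206 with library totals and -0.060 with quantile normalization.

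Ccne1 (ENSMUSG00000002068, chr7:38097984-38107534), the cyclin that drives entry into S phase with Cdk2, differed most from culture in both hosts. Its counts were 1131, 962 and 921 in culture, 503, 475 and 374 in WT GFP+ cells and 528, 466 and 489 in Pfp/Rag2-/- GFP+ cells. All 6 tumour libraries lay below all cultured ones, and the fall was 2.24-fold in WT (log2 difference -1.16, SE 0.12, limma adjusted p = 6.01e-05) and 2.02-fold in Pfp/Rag2-/- (log2 difference -1.02, SE 0.085, limma adjusted p = 6.9e-06). Cyclin E2 ran otherwise, since Ccne2 was 580.0, 453 and 414 in culture, overlapped it in WT (log2 difference -0.014) and was higher in Pfp/Rag2-/- cells (log2 difference 0.66, SE 0.14, limma adjusted p = 0.00204). E2f2 likewise went from 323, 304 and 284 in culture to 437, 460.2 and 460.5 in Pfp/Rag2-/- cells (log2 difference 0.58, SE 0.072, limma adjusted p = 9.85e-05), while in WT its value of 0.14 did not pass.

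Rpa1, Rrm1 and Pola1 were lower in tumour-grown cells of both hosts. Rpa1 (ENSMUSG00000000751, chr11:75298166-75348324) held 4163, 3943 and 4009.6 in culture, 2609.7, 2601 and 2602 in WT and 2099, 2079 and 2279 in Pfp/Rag2-/- cells, so the 3 groups were separate and the WT libraries nearly equal. Its log2 differences from culture were -0.63 (adjusted p = 4.92e-06) and -0.91 (adjusted p = 3.32e-07). Rrm1, the large subunit of ribonucleotide reductase, gave -0.48 and -0.73, and Pola1, the catalytic subunit of polymerase alpha, -0.56 and -0.65. Rpa2, the partner of Rpa1, was -0.052 in WT, which did not pass, and -0.55 in Pfp/Rag2-/- cells, which did.

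Slbp, Rfc3, Cdt1 and Tyms led the genes that were higher than culture in WT cells. Slbp, the histone message binding protein, stood at 1391, 1305 and 1228 in culture and 2193, 1881 and 1776 in WT GFP+ cells (log2 difference 0.57, SE 0.085, limma adjusted p = 0.000422), with no overlap and library 1 the highest. Rfc3 rose by 0.55, Cdt1 by 0.51 and Tyms, thymidylate synthase, by 0.34 on the log2 scale. In Pfp/Rag2-/- cells Slbp, Cdt1 and Rfc3 were higher as well, by 0.22, 0.25 and 0.18, and Tyms at 0.14 was not called. The 4 highest and 4 lowest called genes of each comparison kept their calls in all 16 alternatives (Slbp, Rfc3, Cdt1, Tyms, Ccne1, Rpa1, Pola1 and Rrm1 in WT; Ccne2, E2f2, Cdt1, Slbp, Ccne1, Rpa1, Rrm1 and Pola1 in Pfp/Rag2-/-).

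For the MCM ring, 1 of 6 subunits was called in WT cells against culture, Mcm5, which was higher (0.29). In Pfp/Rag2-/- cells 5 were lower, from -0.47 for Mcm3 to -0.10 for Mcm2, and Mcm5 was higher (0.12). Mcm3 counts were 4162, 4201 and 3968 in culture against 2886, 3045 and 2939 in Pfp/Rag2-/- cells, with no overlap. The direction of Mcm2, Mcm6 and Mcm7 depended on the scaling, with log2 values of 0.154, 0.157 and 0.069 under quantile normalization, and of 0.069 for Mcm2 and 0.051 for Mcm6 under library totals. With all 18 libraries in 1 fit there were 9 calls in WT and 19 in Pfp/Rag2-/- cells in place of 20 and 32. Without the GFP+ library labelled Pfp/Rag2-/- 1 the latter comparison gave 5 higher and 23 lower with a median of -0.192, and Mcm2 (adjusted p = 0.0924), Mcm5 (0.0732), Gins1 (0.062) and Rfc5 (0.0905) were not called. Oligodendrocyte markers summed to 36461.4 to 38765.0 in culture, above every tumour library, and macrophage and microglia markers to 59.4 to 72.5, below every tumour library, with 6 of the 12 at 0 in culture (Aif1, Fcgr1, Itgam, Tyrobp, C1qb and Adgre1); their part in these differences was not tested.

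**Figure D4:**
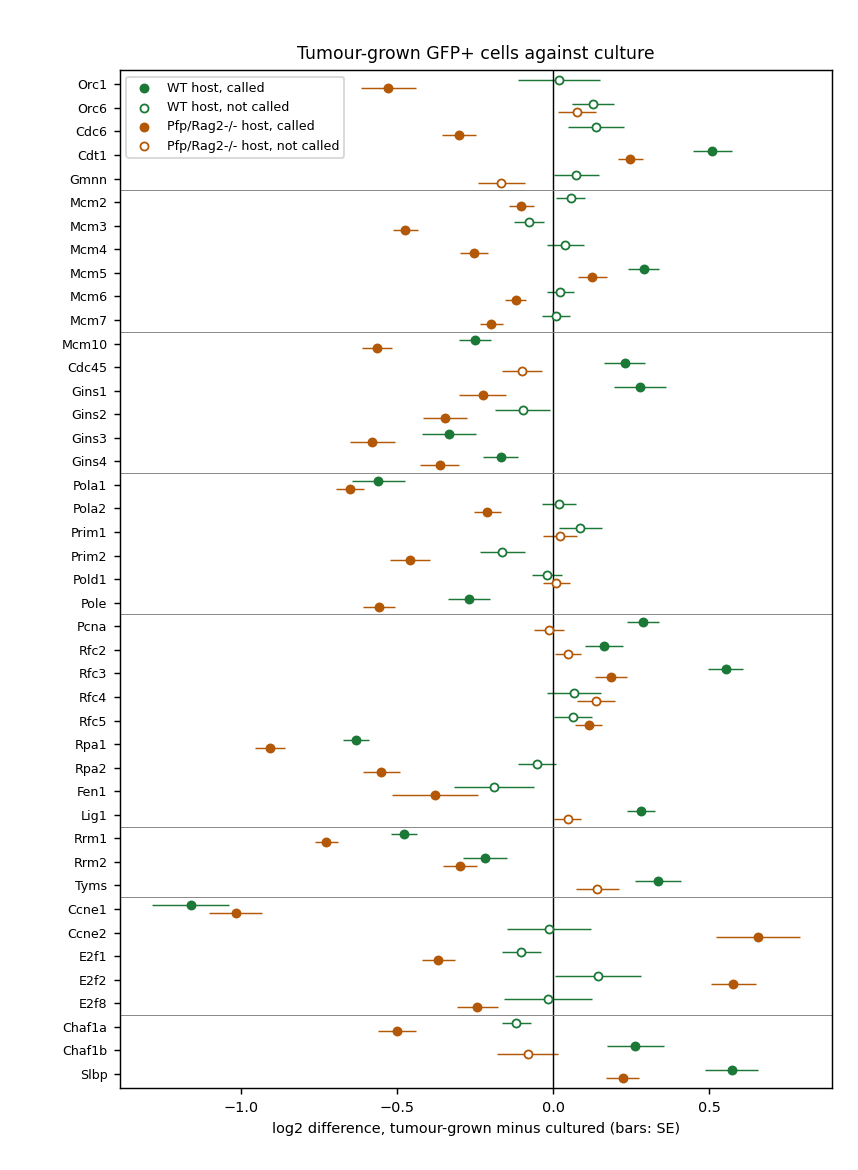
Log2 difference from cultured cells of each gene in GFP+ cells of WT (green) and Pfp/Rag2-/- tumours (brown); bars are SE, filled points are called at a limma adjusted p under 0.05. The brown points lie to the left of the green ones for most genes, Ccne1 lies near -1 in both, and Ccne2 and E2f2 lie to the right in Pfp/Rag2-/- cells.

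GFP- cells were sorted from WT tumours as the cells without the tumour line's label, and macrophage and microglia markers were at their highest there. Compared with GFP+ cells of the same host, 35 of the 43 genes (81.4%) were lower and 2 were higher, against 33.7% and 42.7% of 16083 genes. The median was -1.02, with 0.19 over all genes. All 5 licensing genes, all 6 helicase activation genes, all 6 polymerase and primase genes and all 3 nucleotide supply genes were called lower. The 6 that passed in neither direction were Mcm4, Rfc2, Fen1, E2f1, Chaf1b and Slbp.

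Pola1 (ENSMUSG00000006678, chrX:93304767-93632155) was reduced most, from 2917, 2819 and 3591 in GFP+ to 615, 570.0 and 1014 in GFP- cells, a 4.36-fold fall (log2 difference -2.12, SE 0.23, limma adjusted p = 0.000282). Mcm10, which joins helicase and polymerase alpha, went from 1262, 1204 and 1269.9 to 258, 183 and 493 (log2 difference -2.12, SE 0.34, limma adjusted p = 0.00136). In neither gene did the groups overlap. Of the GFP- libraries, library 2 was the lowest in 38 of the 43 genes and library 3 the highest in 36. The sum of the tumour cell markers Sox2 and Nes had the same order, at 438.5, 388.2 and 1872.3 in libraries 1, 2 and 3. So did Nes alone (319, 246 and 1062), while Sox2 was lowest in library 1 (119, 142 and 810). The part of these markers in the levels was not tested. Cdc6 fell from 1226, 973 and 1034 to 283, 209.5 and 369 (log2 difference -1.94, SE 0.22, limma adjusted p = 0.000336) and Mcm7 from 5419, 5138 and 5490.3 to 1488, 958 and 1947 (log2 difference -1.93, SE 0.24, limma adjusted p = 0.000501). These 4 calls held in all 16 alternatives.

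The MCM subunits, equal partners in 1 ring, had unequal log2 differences: -1.93 for Mcm7, -1.36 for Mcm5, -1.22 for Mcm2, -0.85 for Mcm6, -0.80 for Mcm3 and 0.010 for Mcm4. Mcm4 held 2275, 2022 and 2067 in GFP+ and 2132, 2009 and 2268 in GFP- cells, which overlap. Under quantile normalization and library totals Mcm4 was called lower as well, at -0.43 and -0.65. A factor per library moves all 6 subunits of that library alike.

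E2f2 and Pcna were the 2 genes called higher in GFP- cells. E2f2 (ENSMUSG00000018983, chr4:136172394-136196057) held 679.8, 417 and 772 in GFP- against 291, 311 and 416 in GFP+ cells (log2 difference 0.84, SE 0.27, limma adjusted p = 0.0243). Its GFP- library 2 all but touched the highest GFP+ library, and the call was lost with TMM factors (0.69, adjusted p = 0.0518) and library totals (0.19, adjusted p = 0.603), and without GFP+ library 1 (0.07) or 2 (0.0716) or GFP- library 1 (0.0814) or 3 (0.0588). Pcna held 5265, 4819 and 4737 against 4426, 4055 and 4025 (log2 difference 0.24, SE 0.082, limma adjusted p = 0.0309). Its direction turned to -0.346 under quantile normalization and -0.412 under library totals. The call was also lost with TMM factors (0.085, adjusted p = 0.397), edgeR (0.122, adjusted p = 0.325), DESeq2 (0.115, adjusted p = 0.316) and no filter on low values (adjusted p = 0.0521). Leaving out GFP+ library 2 (adjusted p = 0.113) or 3 (0.0983) or GFP- library 1 (0.0834) lost it too. In all, the Pcna call was lost in 9 of 16 alternatives. With TMM factors 0 of the 43 genes were called higher. The smallest falls among the called genes were those of Gins4 (-0.37) and Rfc5 (-0.37), the latter lost without GFP+ library 2 or 3 or GFP- library 1 or 2 (adjusted p = 0.0542 to 0.0783). Library totals moved the median of all genes from 0.19 to -0.46, quantile normalization to -0.22 and TMM factors to 0.029, and the median of the 43 genes minus it was -1.20 on the deposited scale, -1.21 with library totals, -1.08 with quantile normalization and -1.21 with TMM factors.

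**Figure D5:**
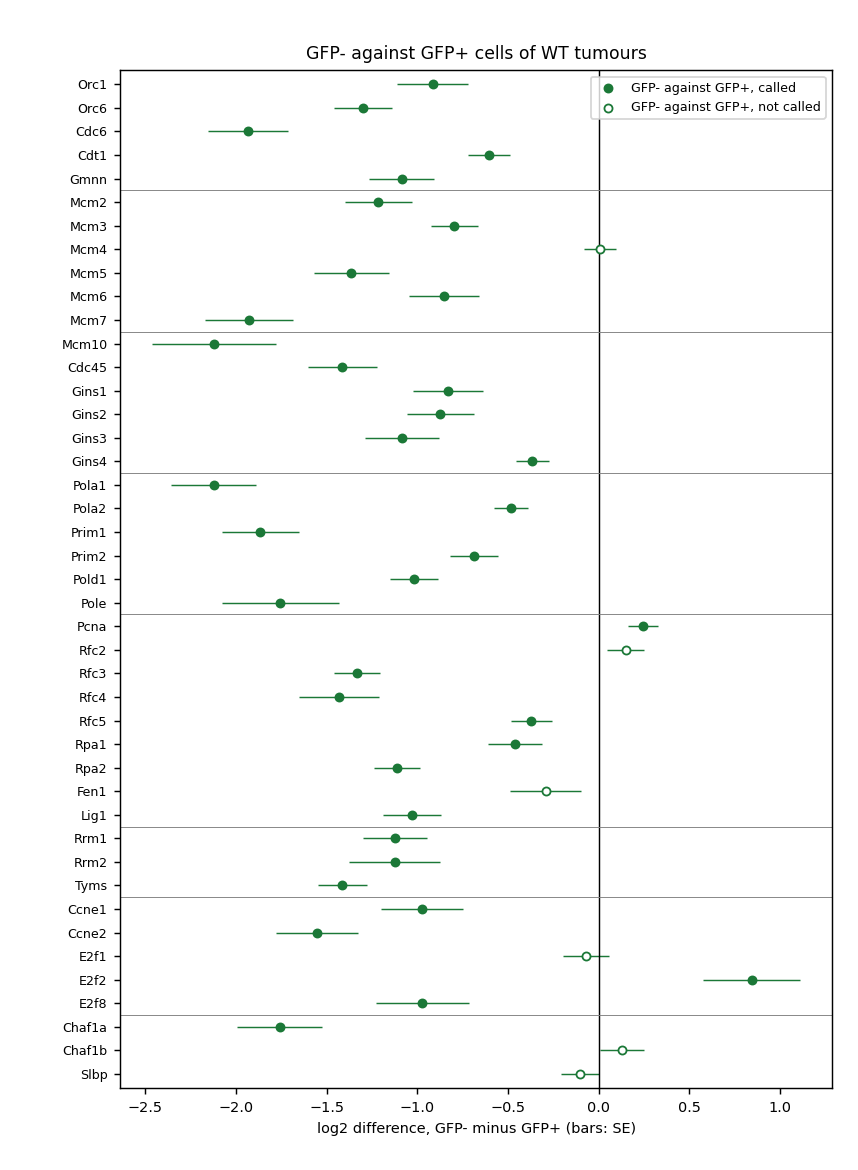
Log2 difference of each gene, GFP- minus GFP+ cells of WT tumours; bars are SE and filled points are called at a limma adjusted p under 0.05. Most points lie left of -0.5, Pola1 and Mcm10 lie beyond -2, and E2f2, Pcna, Rfc2, Chaf1b and Mcm4 lie at or to the right of 0.

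Unsorted tumours were compared with sorted GFP+ cells of the same host, which asks what the sort removed or changed; these comparisons reuse the libraries of the host comparisons. In WT hosts 2 genes (4.65%) were higher in unsorted cells and 1 (2.33%) lower, below the background of 10.3% and 6.46% of 15275 genes. Gmnn was 1312, 1206 and 1297 in unsorted and 968, 882 and 1034 in GFP+ cells (log2 difference 0.41, SE 0.091, limma adjusted p = 0.0271), and Rrm2 was higher by 0.35 and Pold1, the catalytic subunit of polymerase delta, lower at -0.41. The calls numbered 0 without WT GFP+ library 1 or 2 or unsorted library 3, and 1 without GFP+ library 3 or unsorted library 2. Calls over all genes were fewer in these fits too. From 1572 higher and 987 lower they went to 1407 and 374, 642 and 199, and 1386 and 853 without GFP+ library 1, 2 and 3. Without unsorted library 2 and 3 they were 784 and 537, and 234 and 122. TMM factors gave 1 higher and 4 lower, and DESeq2 2 and 4. Macrophage and microglia markers summed to 21034.9 to 23181.3 in unsorted and 2796.2 to 8173.0 in GFP+ WT libraries, and endothelial markers to 3396.9 to 3990.0 and 1626.6 to 2335.4; their part was not tested. The unsorted WT mean lay between the GFP- and GFP+ means for 18 of the 43 genes.

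In Pfp/Rag2-/- hosts 12 genes (27.9%) were lower in unsorted than in GFP+ cells and 0 were higher, against 11.1% and 19.1% of 15324 genes; none was higher at an unadjusted p under 0.05, with edgeR or with DESeq2. Mcm2, Mcm3, Mcm5 and Mcm6 of the MCM ring were among them, with Cdt1, Cdc6, Pola2, Pold1, Pcna, Rfc2, Lig1 and E2f2. E2f2 fell from 437, 460.2 and 460.5 in GFP+ to 319, 299 and 308 in unsorted cells (log2 difference -0.55, SE 0.069, limma adjusted p = 0.00242), and the groups lay well apart. Pold1 fell from 2856, 2646 and 2839 to 2104, 2035 and 2168 (log2 difference -0.40, SE 0.049, limma adjusted p = 0.00224), and Cdt1 and Mcm3 gave log2 differences of -0.32 and -0.31. These 4 held in all 16 alternatives. The total was 5 with all 18 libraries in 1 fit. It was 5 or 6 without GFP+ library 1, 2 or 3 or unsorted library 1 or 2. Over all genes 1699 were called lower in the main fit and 993 to 1546 in these fits. Without the GFP+ library labelled Pfp/Rag2-/- 1 there were 5 lower and 1 higher, Ccne2 (0.310, adjusted p = 0.0182); Cdc6, Mcm5, Mcm6, Pola2, Pcna, Rfc2 and Lig1 were then lost (adjusted p = 0.0517 to 0.102). Rfc2, Pcna, Cdc6 and Pola2, the smallest of the called falls, were each lost in 6 to 8 of the 16. The sum of oligodendrocyte markers was higher in each unsorted Pfp/Rag2-/- library (13183.7 to 21399.4) than in each GFP+ one (9518.3 to 11179.4). Mog among them went the other way, with means of 424 in unsorted and 473 in GFP+ libraries. Macrophage and microglia markers summed to 6377.1 to 7575.3 against 1648.6 to 7109.3. The part of these markers in the differences was not tested.

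The wider pathway was read from lists of further replication genes and of G1/S regulators. Of 47 further replication genes 19 were higher and 1 lower in sorted WT cells, and 12 and 1 in unsorted WT tumours, with medians of 0.15 and 0.17. These are 40.4% and 2.13%, and 25.5% and 2.13%, against 15.3% and 15%, and 15.1% and 14.8%, of all genes. Samhd1, which degrades deoxynucleotides, led both at 1.01 and 1.26. Clspn, claspin of the replication checkpoint, was higher by 0.57 in sorted cells, and Rpa3, the small subunit of replication protein A, was lower at -0.48, unlike Rpa1 and Rpa2. Of 28 G1/S regulators 10 were higher and 3 lower in sorted cells (35.7% and 10.7%) and 6 and 4 in unsorted cells (21.4% and 14.3%, near the shares of all genes). Cdk6, a cyclin D kinase, rose by 1.35 and 0.44, and Cdkn1a, the p21 inhibitor, was lower in WT at -0.68 and -0.97. Of the 28, Cdkn2a had the highest log2 difference in unsorted tumours, 0.94, and Cdkn1c the lowest in sorted cells, -1.096. Ccna2, cyclin A2, gave 0.14 and 0.14, neither of which passed (adjusted p = 0.137 and 0.225).

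Against culture, 15 and 18 of the 47 further replication genes were higher and lower in WT GFP+ cells, and 13 and 27 in Pfp/Rag2-/- GFP+ cells. The WT shares of 31.9% and 38.3% were near the 30.3% and 35.3% of all genes, and the Pfp/Rag2-/- shares were 27.7% and 57.4% against 35.1% and 37.1%. Of the 28 regulators 2 were higher and 14 lower in WT, and 3 and 17 in Pfp/Rag2-/- cells (7.14% and 50%, and 10.7% and 60.7%). Ccnd2, cyclin D2, was lower by far in both, at -1.90 and -2.50, as was Cdk6 at -1.23 and -2.57. In GFP- against GFP+ cells 8 of the 47 were higher and 34 lower, and 7 and 17 of the 28. These are 17% and 72.3%, and 25% and 60.7%, against 42.7% and 33.7% of all genes. Cdkn1a was higher there by 3.64 and Pold4, a small subunit of polymerase delta, by 3.77, while Ccnd1 was lower at -3.05 and Cdkn2a at -4.55.

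Host calls were also counted by promoter letters. Of the 13 genes with an 8-letter match 9 were called higher in sorted WT cells, and of the 21 matched genes without one 12 were, with median log2 differences of 0.23 in both. In unsorted tumours the counts were 6 of 13 and 11 of 21. Among the 7 genes whose windows are printed, Orc1, Cdc6, Mcm5, Mcm6 and Mcm7 were called higher in sorted WT cells and Gins3 and Pola1 were not. Without the library labelled Pfp/Rag2-/- 1, Mcm5, Mcm6 and Mcm7 lost their calls, as did Cdt1 among the 13. Of the 21 without a match, Mcm2, Tyms and E2f1 then lost theirs. With the CCAAT box 15 of 22 were called in sorted cells, and without it 6 of 12. These counts are descriptions, with no test.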

How the data were processed

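Messenger RNA of 18 libraries was sequenced. The deposited values are a signal, normalized counts per gene and library, made by the authors by dividing read counts by 1 size factor; STAR 2.5.2b, DESeq2 and GRCm38 are named in the submitters' processing notes, and the read counter is not given in the sources used here. Of each library's values, 100.0% were whole multiples of the value of 1 read, within 0.05 reads, so reads were recovered for the count models. Genes at 10 or more in no fewer than 3 libraries of a fit were tested as log2(value + 1) with limma 3.58.1 (eBayes with trend, two-sided, R 4.3.3), on the groups compared, with Benjamini-Hochberg adjustment over all genes; all 43 passed this filter in every comparison. Fold changes are on that log2 scale. Full statistics are given for the 4 highest and 4 lowest called members per comparison, and other members are named with values; of further pathway genes, up to the 2 highest and 2 lowest called per comparison may be named, with Cdkn1a, Ccnd1, Tk1 and Ccna2. The members and lists were chosen with earlier results of these data known. Alternatives were TMM factors, quantile normalization, library totals, a pseudocount of 10, a filter at 50 or none, 1 fit of 18 libraries, edgeR 4.0.16, DESeq2 1.42.0, a replicate block, leaving out each library, and leaving out both GFP+ libraries numbered 1, added after seeing the data. In the sorted host comparison deviations from the group means correlated at 0.616, 0.483 and 0.102 between same-numbered libraries. Unlike numbers came close to this for WT library 2 with Pfp/Rag2-/- library 3 (0.443) and WT library 3 with Pfp/Rag2-/- library 2 (0.067). The other unlike pairs gave -0.572 to -0.105. These values do not settle a pairing by number, and the main fits used no replicate block. In GFP- against GFP+ cells of WT tumours same-numbered libraries correlated at 0.212, 0.068 and 0.32, and unlike numbers at -0.295 to 0.18. Each remaining comparison of groups held a negative value for some same-numbered libraries. The main fit of the sorted host comparison was run on simulated counts with known folds, and the other fits were not.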

Additional observations from a re-analysis of the deposited data

How the results depend on the processing

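Calls over all genes changed with the libraries that entered and with the scaling, as given above for several fits. So did the number of genes called among the 43. In the sorted host comparison (26) it was 17 with quantile normalization, 16 with library totals, 11 with 1 fit of all 18 libraries, 7 without both GFP+ libraries numbered 1, and 13 to 27 with 1 library left out. With 1 library left out it was 9 to 32 in the unsorted host comparison (23), 16 to 20 for WT GFP+ cells against culture (20), 28 to 31 for Pfp/Rag2-/- GFP+ cells against culture (32), 33 to 36 for GFP- against GFP+ cells (37), 0 to 4 for WT unsorted against GFP+ cells (3), 5 to 12 for Pfp/Rag2-/- unsorted against GFP+ cells (12) and 0 to 1 for the interaction (0). With 1 fit of all 18 libraries it was 9 and 19 against culture in WT and Pfp/Rag2-/-, and 5 for Pfp/Rag2-/- unsorted against GFP+ cells. For WT unsorted against GFP+ cells it was 5 with TMM factors, 6 with DESeq2 and 1 with the replicate block. For the interaction it was 1 with quantile normalization and 3 with DESeq2. Over all genes the interaction gave 157 higher and 113 lower with quantile normalization and 767 and 427 with DESeq2.

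The replicate block gave 23 calls in the sorted host comparison, where it changed the calls of Mcm2, Mcm5, Mcm6, Tyms and E2f2, and 16 in the unsorted one, 20 and 30 against culture, 37 for GFP- cells, 9 for Pfp/Rag2-/- unsorted against GFP+ cells and 0 for the interaction. The labels do not say what libraries of the same number have in common, in the sorted host comparison or in the others.

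Directions turned in 2 comparisons. Against culture in Pfp/Rag2-/- cells, Mcm2 was 0.154 with quantile normalization and 0.069 with library totals, Mcm6 0.157 and 0.051, Pcna 0.236 and 0.157, and Mcm7 0.069 with quantile normalization. In GFP- against GFP+ cells, Mcm4 was -0.431 with quantile normalization and -0.646 with library totals, Pcna -0.346 and -0.412, and with library totals Rfc2 was -0.506 and Chaf1b -0.524. The cause of these changes was not tested.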
